A study of Mus musculus with 8 samples.

Results

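The genes of fatty acid oxidation and ketogenesis in the liver were compared between mice that lack both liver X receptors and WT mice. They were chosen by symbol, as 41 of the 25010 genes in the deposited RNA-Seq table. They comprised 18 mitochondrial genes, 13 peroxisomal genes, 6 acyl-CoA thioesterases, 1 ketone body gene (Bdh1) and 3 further genes of fuel choice and lipid response (Pdk4, Vnn1 and Ucp2). All 41 were detected in every liver and passed the filter used for testing, a mean of at least 10 normalized counts.

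RNA-Seq was made from the left liver lobe of 2 WT and 2 LXRDKO mice, 1 library per mouse. All mice were on the C57BL/6 background, 8 wk old and fasted for 4 to 6 h. LXRDKO mice carry a whole-body deletion of LXRα (gene Nr1h3) and of LXRβ (gene Nr1h2), so that a difference in liver RNA need not arise in hepatocytes. The tissue was bulk liver, in which fewer cells of a type and less RNA per cell cannot be told apart.

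Liver burns fatty acids in both mitochondria and peroxisomes. Long chains enter mitochondria as carnitine esters and are shortened by repeated rounds of dehydrogenation, hydration, a second oxidation and thiolysis, whereas peroxisomes shorten very long chains and other substrates that mitochondria handle poorly. Acyl-CoA thioesterases release free fatty acids from CoA, and in fasting much of the acetyl-CoA formed is turned into ketone bodies. Many of these genes are classical targets of PPARα, a nuclear receptor that is activated by fatty acids and drives the fasting response.

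The libraries held between 55772659 and 72842744 reads on genes. Nr1h3 and Nr1h2 fell in both LXRDKO livers, with log2 fold changes of −1.65 and −1.66 (adjusted P = 0.0147 each, limma), and the hepatocyte marker Alb was abundant in every liver. WT replicate 2 stood apart in the genes described here. It held the highest value of the 4 livers in 27 of the 41 members (65.9%), against 24.6% of all 15578 genes tested. For many members the change is given with and without this liver.

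In LXRDKO livers 39 of the 41 genes had a log2 fold change below 0, against 50.9% of all genes tested, but the differences were small and none passed the limma test across all genes. By the mean of the normalized counts 38 were lower, since Pdk4 was higher on that scale. The count below 0 was 30 without WT replicate 2, 34 without LXRDKO replicate 1 and 36 under library-total scaling. The median log2 fold change was −0.24 for the 41 genes and −0.0046 for all genes tested, and −0.13 for the 41 without WT replicate 2. At an adjusted P value of 0.05, limma on log2(normalized count + 1) called 0 of the 41, where it called 0.186% of all genes lower and 0.135% higher. Without adjustment, 7 members had a P value under 0.05 and a lower mean (7.50% of all genes), namely Etfdh, Hadha, Hadhb, Abcd3, Acad11, Acaa1b and Vnn1, and 1, Ucp2, had a higher mean (5.77% of all genes). DESeq2, run on the reads recovered from the table, called 3 members lower, Abcd3, Acaa1b and Vnn1, where it called 2.03% of all genes lower, and none higher, where it called 1.56% of all genes. EdgeR, by its quasi-likelihood test on those reads, called 0 members. Each LXRDKO liver lay below each WT liver in 20 members, or 48.8%, compared with 23.0% of all genes, and in 11 members against 17.6% of all genes when values were rescaled to the upper quartile, and 13 against 17.2% when rescaled to the library total. They lay above both WT livers in 2 members, Echs1 and Ucp2, compared with 21.7% of all genes.

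**Figure D1:**
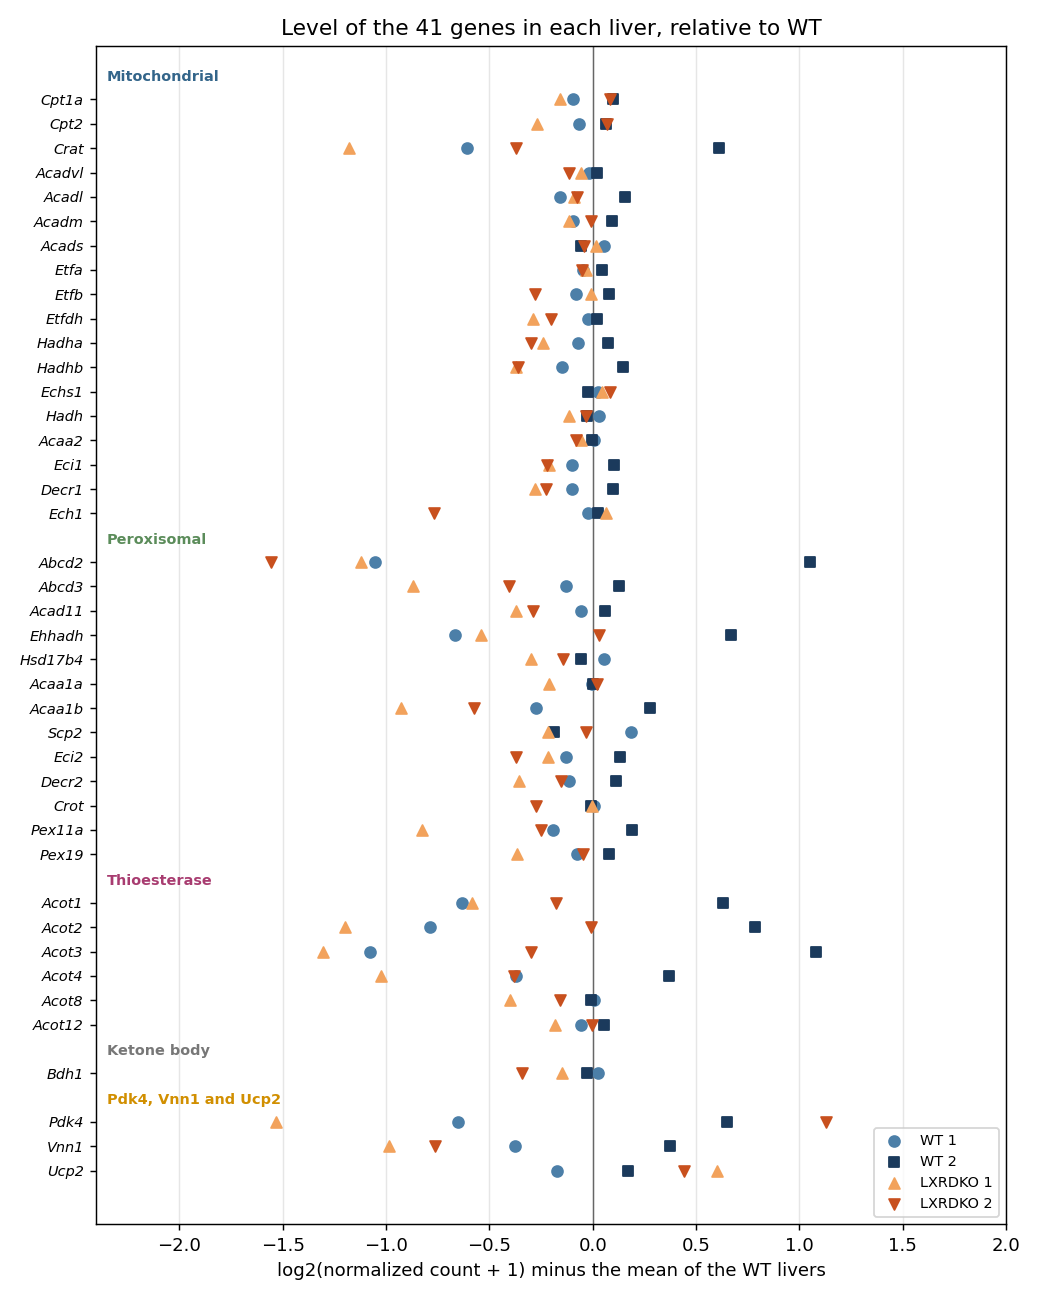
Level of each of the 41 genes in the 4 livers, as log2(normalized count + 1) minus the mean of the WT livers. Each symbol is 1 liver. WT replicate 2 (dark squares) lies to the right in Crat, Abcd2, Ehhadh and Acot1 to Acot4, and most mitochondrial genes lie close to 0 in all livers.

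Of the 3 larger groups the mitochondrial genes had the median nearest to 0. Their log2 fold changes ran from −0.78 to 0.06 with a median of −0.09, and 17 of 18 had a lower mean in LXRDKO. In 8 of them (44.4%, against 23.0% of all genes) each LXRDKO liver was below each WT liver. Neither limma nor DESeq2 called any of the 18.

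Carnitine palmitoyltransferase 1a, the entry step on the outer membrane, was at almost the same level in both genotypes. Cpt1a had 50268 and 57483 normalized counts in WT against 48151 and 56912 in LXRDKO, with a log2 fold change of −0.04 (95% interval −0.40 to 0.32). Cpt2, its counterpart on the inner membrane, had 12175 and 13307 in WT against 10573 and 13360 in LXRDKO. Both pairs of groups overlapped. Crat, which transfers acetyl groups to carnitine, was far more variable, with 4560 and 10609 normalized counts in WT against 3069 and 5382 in LXRDKO. Crat changed by −0.78 on the log2 scale (95% interval −1.87 to 0.32), and without WT replicate 2 it was −0.17.

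The acyl-CoA dehydrogenases, which carry out the first oxidation on chains of different length, were close to their WT levels. The log2 fold changes were −0.08 for Acadvl, −0.08 for Acadl, −0.06 for Acadm and −0.01 for Acads, for very long, long, medium and short chains. Their 95% intervals lay between −0.40 and 0.23. Acadvl shares 42.9% of its exon bases with Dvl2 on the opposite strand. The library kit keeps strand, but the strand setting of the counting is not given in the sources used here.

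Electrons from these dehydrogenases pass to the electron transfer flavoprotein, made of subunits encoded by Etfa and Etfb, and then to its oxidoreductase, encoded by Etfdh. Etfdh had 17861 and 18392 normalized counts in WT against 14858 and 15787 in LXRDKO. Both LXRDKO livers were lower, and the log2 fold change was −0.24 (limma, standard error 0.09 and adjusted P = 0.359). It remained between −0.29 and −0.20 with any 1 liver left out. Etfa had 10368 and 11055 in WT against 10454 and 10320 in LXRDKO. Etfb, its partner, had only 253 and 283 in WT against 267 and 221 in LXRDKO. Per kb of exon, Etfa exceeded Etfb by 24.7-fold to 29.6-fold in the 4 livers. Of the exon bases of Etfb, 58.2% are annotated to another gene on the same strand as well, so reads there could have been left uncounted or given to that gene.

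Hadha and Hadhb encode the α and β subunits of the mitochondrial trifunctional protein, which performs the last steps of the cycle on long chains. They lie beside each other on chromosome 5 of GRCm38, on opposite strands, at chr5:30118304-30155162 and chr5:30155248-30184593. Hadha had 29495 and 32594 normalized counts in WT against 26220 and 25174 in LXRDKO. Hadhb had 1646 and 2021 in WT against 1410 and 1418 in LXRDKO. In both genes the LXRDKO livers were below the WT livers, by 0.27 on average for Hadha and 0.37 for Hadhb on the log2 scale. Adjusted P values by limma were 0.370 for Hadha and 0.318 for Hadhb, and without WT replicate 2 the change of Hadhb was −0.22.

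Hadhb has a near-identical copy elsewhere in the genome. Per kb of exon, Hadha exceeded Hadhb by 12.2-fold to 14.0-fold. This ratio depends on the lengths used, which were 8730 and 6595 exon bases, where the transcripts compared have 4017 and 2048. Of the Hadhb transcript, 94.4% aligns to Gm13910 on chromosome 2 at 99.7% identity, and 81.7% of all 50-base windows of the transcript, the length of the reads, occur in the copy unchanged. Gm13910 itself was listed at 15.0 to 19.5 normalized counts. How reads that align to both places were counted is not given in the sources used here, and their part in the level of Hadhb was not tested. The following 50-base windows show how little separates them. They run 5′ to 3′ around coding base 201 of Hadhb, counted from the first base of the start codon, and the capital marks the substitution G201A, with the gene's base first. The copy's window is chr2:108948981-108949030 (+ strand, GRCm38).
Hadhb: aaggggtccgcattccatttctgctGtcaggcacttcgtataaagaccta
Gm13910: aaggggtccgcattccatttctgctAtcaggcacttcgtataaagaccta
The only other coding differences were A393G and G743A, named in the same way.

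Enzymes of the later steps on shorter chains differed little. Echs1, the short-chain enoyl-CoA hydratase, was the 1 mitochondrial gene with a higher mean in LXRDKO (log2 fold change 0.06, 95% interval −0.16 to 0.28). Hadh, the hydroxyacyl-CoA dehydrogenase, and Acaa2, the mitochondrial thiolase, had log2 fold changes of −0.07 each. Per kb of exon, Acaa2 had the highest level of the 18 mitochondrial genes, at 30948 normalized counts per kb in WT.

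Among the auxiliary enzymes for unsaturated chains, the isomerase Eci1 and the 2,4-dienoyl-CoA reductase Decr1 were lower in both LXRDKO livers. Eci1 had 7677 and 8845 normalized counts in WT against 7113 and 7066 in LXRDKO. Decr1 had 12255 and 14045 in WT against 10806 and 11201 in LXRDKO. Neither passed the test, with log2 fold changes of −0.22 (95% interval −0.47 to 0.04) and −0.25 (95% interval −0.51 to 0.01). Without WT replicate 2 they changed by −0.11 and −0.16. Ech1, a dienoyl-CoA isomerase, had 17692 and 18289 normalized counts in WT, 18793 in LXRDKO replicate 1 and 10554 in LXRDKO replicate 2. Its log2 fold change of −0.35 rested on that last liver, and without it the value was 0.06.

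All 13 peroxisomal genes had a lower mean in LXRDKO livers. Their log2 fold changes ran from −1.34 to −0.10 with a median of −0.26. In 8 of the 13 (61.5%, against 23.0% of all genes) each LXRDKO liver was below each WT liver. The transporter Abcd3 and the thiolase Acaa1b passed DESeq2 but not limma.

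Abcd3 encodes PMP70, an ABC transporter that carries acyl-CoA into peroxisomes. It had 46707 and 55660 normalized counts in WT against 27924 and 38477 in LXRDKO, so that each LXRDKO liver lay below each WT liver. The log2 fold change was −0.64 (limma, standard error 0.19 and adjusted P = 0.261), and DESeq2 gave an adjusted P value of 0.0363. Its size lay between −0.87 and −0.41 with any 1 liver left out. Abcd2, a related transporter of very long chains, had 1151 and 4943 in WT against 1097 and 811 in LXRDKO. The high value of WT replicate 2 set the log2 fold change of −1.34 (95% interval −2.94 to 0.26), and without that liver it was −0.29. Without WT replicate 1 instead it was −2.39, with an adjusted P value of 0.00460 by limma, a fit in which WT is the 1 liver that stood apart and is assumed to vary like the LXRDKO livers.

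Thiolases cleave the end product of each peroxisomal cycle. Acaa1b had 37865 and 55524 normalized counts in WT against 24111 and 30784 in LXRDKO. These LXRDKO values were both lower, with a log2 fold change of −0.75 (limma, standard error 0.22 and adjusted P = 0.254) and an adjusted P value of 0.0151 by DESeq2. The change lay between −1.03 and −0.47 with any 1 liver left out, the latter without WT replicate 2. Acaa1a, its paralog on the same chromosome, had 10913 and 10969 in WT against 9456 and 11090 in LXRDKO. These groups overlapped, and the log2 fold change was −0.10 (95% interval −0.37 to 0.17). Per kb of exon, Acaa1b exceeded Acaa1a by 7.81-fold and 11.4-fold in WT and by 5.74-fold and 6.25-fold in LXRDKO. These ratios use all annotated exons, 4414 bases for Acaa1a and 1962 for Acaa1b. The transcripts compared below are nearly equal in length, 1762 and 1689 bases, and would give smaller ratios. The difference between the paralogs in their change was not tested.

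The coding sequences of Acaa1a and Acaa1b are identical at 96.5% of 1272 aligned bases, with 1 identical stretch of 327 bases. Windows of 50 bases that occur in both make up 34.0% of the Acaa1a transcript and 35.5% of that of Acaa1b, and reads from there could have been split or dropped in counting. The promoters differ far more, and are shown because they separate paralogs whose coding parts are nearly alike. They come from the RefSeq promoter table of GRCm38.p6 and run 5′ to 3′ from 250 bases before the annotated start to 50 bases from it. The base that RefSeq annotates as the start is in capitals. Acaa1a lies at chr9:119341044-119341343 (+ strand) and Acaa1b at chr9:119157044-119157343 (− strand). The GENCODE gene model of Acaa1a begins before this window, at chr9:119339676, so the window lies inside that model. No 50-base window is shared between them, and 68.6% of 258 aligned bases are identical. This pair was chosen after its values were seen.
Acaa1a: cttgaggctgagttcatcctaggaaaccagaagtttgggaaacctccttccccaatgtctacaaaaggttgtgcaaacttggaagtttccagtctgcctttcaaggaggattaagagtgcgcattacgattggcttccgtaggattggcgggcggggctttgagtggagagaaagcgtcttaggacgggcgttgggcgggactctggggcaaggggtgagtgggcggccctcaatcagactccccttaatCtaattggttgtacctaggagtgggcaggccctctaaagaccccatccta
Acaa1b: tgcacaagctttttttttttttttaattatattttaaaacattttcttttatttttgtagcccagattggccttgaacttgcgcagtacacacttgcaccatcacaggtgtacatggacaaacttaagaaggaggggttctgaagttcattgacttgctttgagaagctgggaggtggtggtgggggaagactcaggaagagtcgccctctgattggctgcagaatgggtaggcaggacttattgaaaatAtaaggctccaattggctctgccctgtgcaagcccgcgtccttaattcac
The 13-base pattern AGGNCANAGGNCA, a direct repeat spaced by 1 base such as PPARα binds with RXR, occurred on neither strand in any of the 37 RefSeq promoters that matched 34 of the 41 genes, and in 0.381% of all 32851 promoters of this length. AGGNCANNNNAGGNCA, a repeat spaced by 4 bases such as LXRs bind, occurred in none of the 37 either, and in 0.253% of all promoters. The single half-site AGGTCA occurred in 9 of the 37 (24.3%) and in 16.3% of all promoters. Both repeats are so rare that most sets of 37 promoters would hold none, so their absence does not set these genes apart. Repeats that depart further from the patterns were not searched. These matches describe letters in windows of 300 bases only, and Crat, Acaa2, Decr1, Abcd2, Hsd17b4, Pex19 and Vnn1 were not searched.

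**Figure D2:**
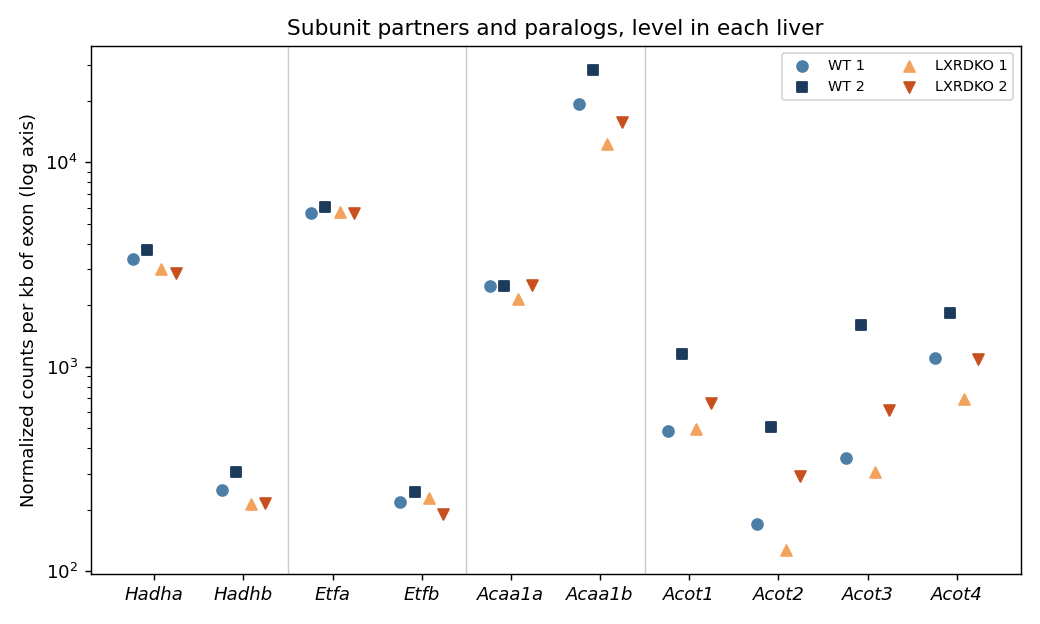
Normalized counts per kb of exon on a log axis for subunit partners and paralogs, 1 symbol per liver. Hadhb and Etfb lie more than 10-fold below their partners Hadha and Etfa in every liver, Acaa1b lies above Acaa1a, and Acot1 to Acot4 share the high value of WT replicate 2.

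The bifunctional enzymes, which combine hydration and the second oxidation, behaved differently from each other across livers. Ehhadh, the L-bifunctional enzyme, had 23149 and 58393 normalized counts in WT against 25271 and 37612 in LXRDKO. The LXRDKO values lay between the WT values, and the log2 fold change turned from −0.25 to 0.41 without WT replicate 2. Hsd17b4, the D-bifunctional enzyme, had 36149 and 33460 in WT against 28254 and 31540 in LXRDKO. Both LXRDKO livers were lower, and its log2 fold change of −0.22 (95% interval −0.51 to 0.07) did not pass the test.

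Acad11, an acyl-CoA dehydrogenase, was lower in both LXRDKO livers, with 33109 and 35917 normalized counts in WT against 26689 and 28235 in LXRDKO. The log2 fold change was −0.33 (limma, standard error 0.11 and adjusted P = 0.301) and lay between −0.39 and −0.27 with any 1 liver left out. The isomerase Eci2 and the dienoyl-CoA reductase Decr2 changed by −0.29 and −0.26 on the log2 scale, also with each LXRDKO liver below each WT liver, and by −0.16 and −0.14 without WT replicate 2. Crot, which makes carnitine esters of shortened chains for export, changed by −0.14, and its groups overlapped.

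Scp2, whose longer product is a thiolase for branched chains and whose shorter product binds sterols, had the highest level per kb of exon of all 41 genes, at 47315 normalized counts per kb in WT. It had 185792 and 143333 normalized counts in WT against 140315 and 159728 in LXRDKO, and the groups overlapped. A copy, Scp2-ps2, holds 41.3% of its 50-base windows unchanged and was listed at 216 to 278 normalized counts.

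The peroxins of the set were Pex11a, which promotes division of peroxisomes, and Pex19, the receptor for their membrane proteins. Pex11a had 9935 and 12953 normalized counts in WT against 6403 and 9547 in LXRDKO. The groups did not overlap, and the log2 fold change was −0.54 (95% interval −1.09 to 0.01, adjusted P = 0.388, limma). Without WT replicate 2 the change was −0.35, and without LXRDKO replicate 1 it was −0.25. Pex19 changed by −0.21 on the log2 scale with overlapping groups, and by −0.13 without WT replicate 2.

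**Figure D3:**
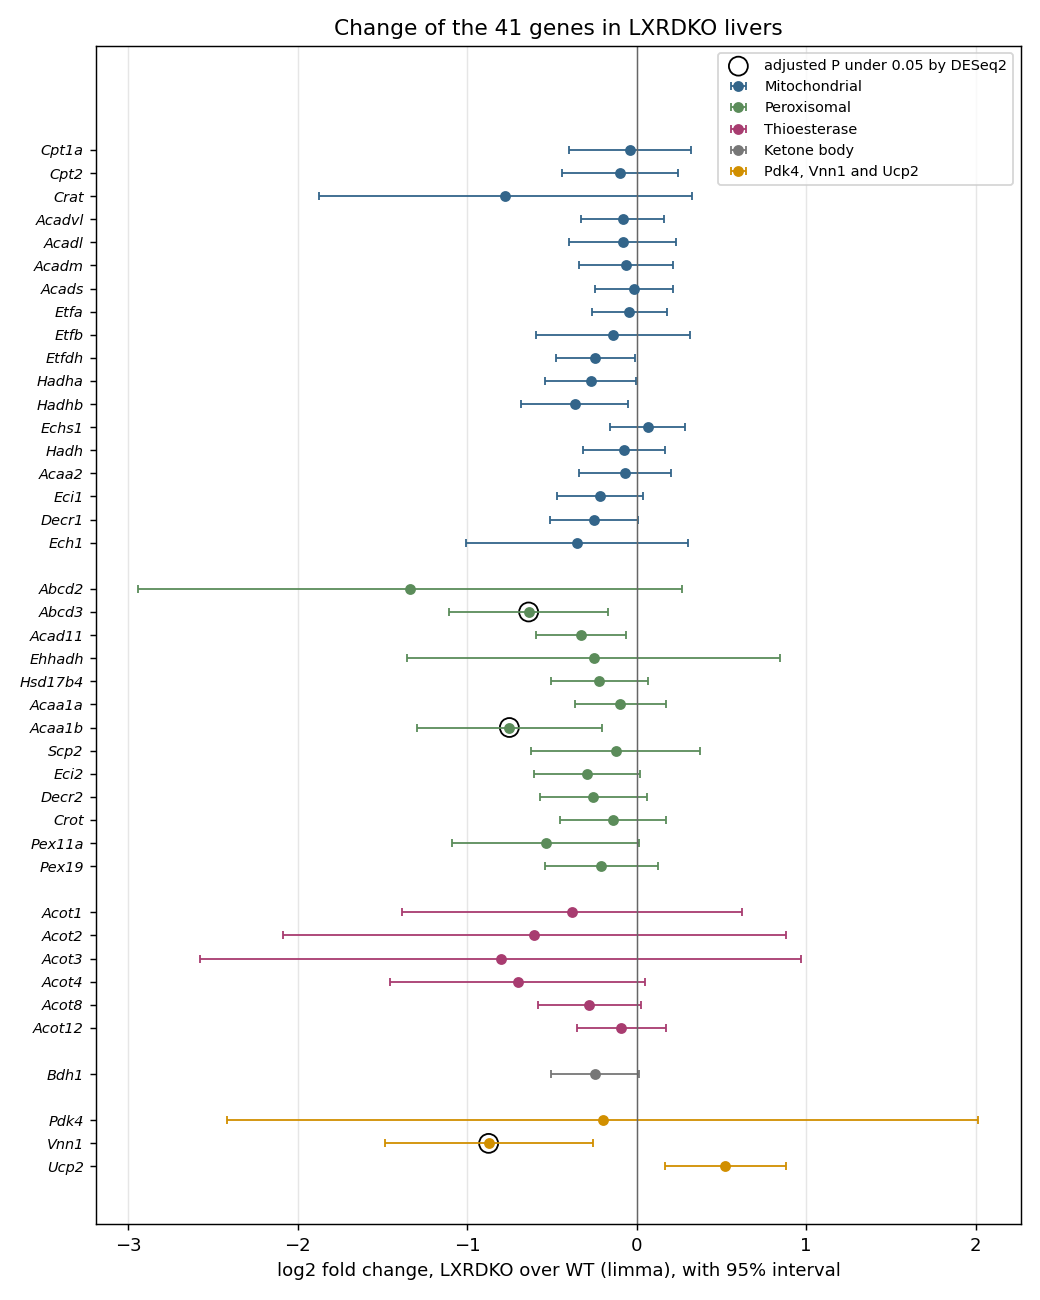
Log2 fold change of each gene in LXRDKO over WT livers by limma, with its 95% interval as a bar. Circled points passed an adjusted P value of 0.05 by DESeq2, which were Abcd3, Acaa1b and Vnn1. Intervals of Crat, Abcd2, Ehhadh, Acot1, Acot2, Acot3 and Pdk4 are the widest, and those of most mitochondrial genes span 0 narrowly.

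The 6 thioesterases all had a lower mean in LXRDKO, with log2 fold changes from −0.80 to −0.09 around a median of −0.49. None passed limma or DESeq2, and the median depended on single livers. Leaving out WT replicate 2 gave a median of 0.07, and leaving out WT replicate 1 gave −1.04.

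Acot1 to Acot4 lie together on chromosome 12, from 83987861 to 84060402, and differ in where their products work: Acot1 in the cytosol, Acot2 in mitochondria, and Acot3 and Acot4 in peroxisomes. Acot1 had 1892 and 4542 normalized counts in WT against 1955 and 2594 in LXRDKO. Acot2 had 373 and 1109 in WT against 280 and 639 in LXRDKO. Acot3 had 1226 and 5475 in WT against 1048 and 2104 in LXRDKO. In these 3 genes WT replicate 2 was the highest liver and WT replicate 1 was near the lower LXRDKO liver. Their log2 fold changes of −0.38, −0.60 and −0.80 turned to 0.25, 0.18 and 0.28 without WT replicate 2.

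Acot4 was the member of the cluster whose groups did not overlap, with 7347 and 12251 normalized counts in WT against 4666 and 7285 in LXRDKO. The upper LXRDKO value lay just under the lower WT value. The log2 fold change was −0.70 (95% interval −1.45 to 0.05), and −0.33 without WT replicate 2. Coding sequences of Acot1 and Acot2 were identical at 95.3% of aligned bases and the other pairs of the cluster at 78.9% to 85.9%. Windows of 50 bases shared with the other made up 23.7% of the Acot1 transcript and 24.5% of that of Acot2, so their separate levels are uncertain.

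The thioesterases outside the cluster varied less. Acot8, a peroxisomal enzyme, had 1197 and 1185 normalized counts in WT against 904 and 1066 in LXRDKO, both lower, with a log2 fold change of −0.28 (95% interval −0.58 to 0.02). Acot12, a cytosolic enzyme that hydrolyses acetyl-CoA, changed by −0.09, and its groups overlapped.

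Bdh1, the mitochondrial enzyme that interconverts acetoacetate and β-hydroxybutyrate, was the only ketone body gene among the 41. It had 15401 and 14834 normalized counts in WT against 13620 and 11932 in LXRDKO. Both LXRDKO livers were lower, and the log2 fold change of −0.25 (95% interval −0.51 to 0.02, adjusted P = 0.398, limma) remained between −0.34 and −0.15 with any 1 liver left out.

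Vnn1, a pantetheinase that releases pantothenate and a strongly fasting-responsive gene of liver, had 3503 and 5886 normalized counts in WT against 2293 and 2678 in LXRDKO. The LXRDKO values were both lower. The log2 fold change was −0.87 (limma, standard error 0.25 and adjusted P = 0.244), the adjusted P value by DESeq2 was 0.00792, and without WT replicate 2 the change was −0.50. Pdk4, which inhibits pyruvate dehydrogenase and so spares glucose, had the largest standard error of the 41 (0.89, log2 scale). It had 212 and 525 normalized counts in WT against 115 and 731 in LXRDKO. Its log2 fold change of −0.20 (95% interval −2.42 to 2.02) was 0.20 by DESeq2, and 0.45 by limma without WT replicate 2.

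Ucp2, a carrier of the inner mitochondrial membrane, was higher in both LXRDKO livers. It had 1426 and 1807 normalized counts in WT against 2438 and 2183 in LXRDKO, with a log2 fold change of 0.52 (limma, standard error 0.14 and adjusted P = 0.235). By DESeq2 the adjusted P value was 0.0934. Without WT replicate 2 the change of Ucp2 was 0.69. Ucp2 is also expressed by macrophages, and markers of the resident macrophages of liver moved between these groups. Of 11 Kupffer cell markers limma called 4 lower, namely Clec4f, Cd5l, Marco and Cd163, and none higher. The summed level of the 11 was 16239 and 17942 normalized counts in WT against 11083 and 6515 in LXRDKO. Timd4 was at 0 in LXRDKO replicate 2, and none of the markers was at 0 in all livers. The 5 markers that other macrophages share, Csf1r, Adgre1, C1qa, C1qb and C1qc, had log2 fold changes of 0.05, −0.79, −0.19, 0.06 and −0.29, and neither limma nor DESeq2 called any of them. The part of these cells in the level of Ucp2 was not tested.

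Several members differed widely between livers of the same genotype. Between the WT livers, 7 members, Crat, Abcd2, Ehhadh, Acot1, Acot2, Acot3 and Pdk4, differed by more than 1 on the log2 scale, or 17.1% of the 41 against 6.28% of all genes tested. All 7 were higher in WT replicate 2. Of the same 7, all but Abcd2 were also higher in LXRDKO replicate 2 than in LXRDKO replicate 1. The size of the differences in log2 was 2.16 in WT and 1.01 in LXRDKO for Acot3, 1.57 and 1.19 for Acot2, 1.22 and 0.81 for Crat, 1.33 and 0.57 for Ehhadh, and 1.30 and 2.66 for Pdk4.

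Across the 41 genes the difference between the WT livers and that between the LXRDKO livers had a Pearson r of 0.51 (Spearman rho 0.46), and across all 15578 genes an r of 0.0031 (rho −0.03). Genes are not independent replicates, each difference comes from a pair of livers, and the sign of r depends on which liver is subtracted from which, so that r is a description of these 4 livers. The median absolute difference between the WT livers was 0.19 for the 41 genes and 0.18 for all genes. It was 1.00 for the thioesterases and 0.14 for the mitochondrial genes.

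**Figure D4:**
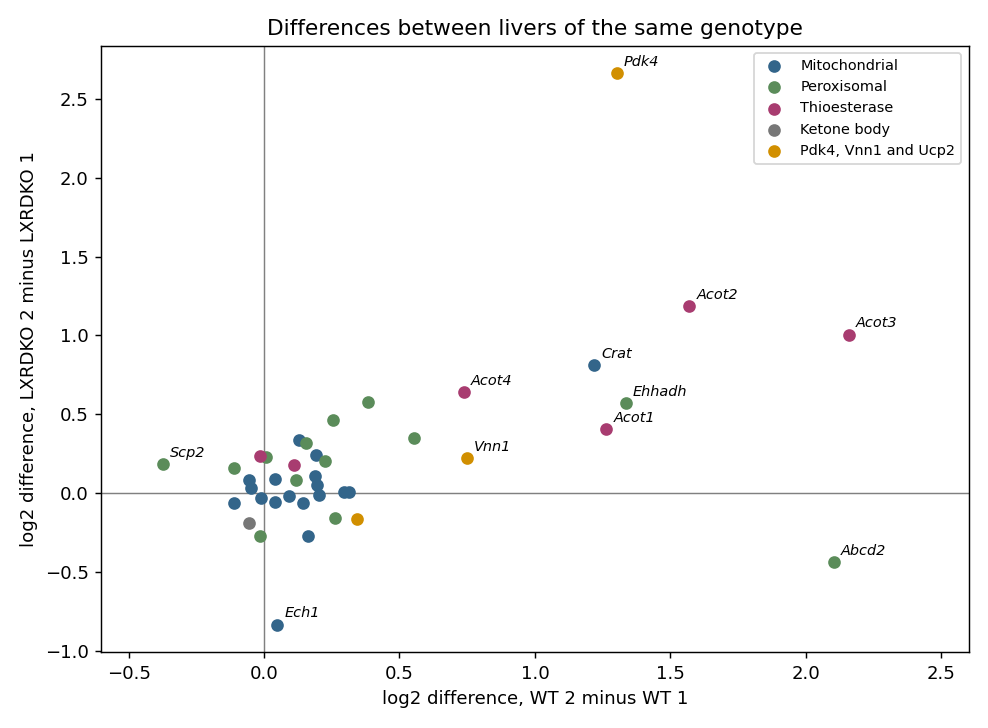
Each point is 1 of the 41 genes, with the log2 difference between the WT livers on the x axis and that between the LXRDKO livers on the y axis. Acot2, Acot3, Crat, Ehhadh, Acot1 and Pdk4 differ in the same direction in both genotypes, while Abcd2 is higher in WT replicate 2 but not in LXRDKO replicate 2, and Ech1 is lower in LXRDKO replicate 2.

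Pericentral genes, which mark the zone of the lobule around the central vein, also set WT replicate 2 apart, as it had the lowest value in all 8 of those listed. Their summed level was 745359 and 454621 normalized counts in WT against 760410 and 702550 in LXRDKO. Glul, the defining pericentral enzyme, had 42620 and 24556 in WT against 43956 and 45696 in LXRDKO. The 8 periportal genes did not set this liver apart and summed to 815472 and 774335 in WT against 946593 and 961234 in LXRDKO. Cidec, a lipid droplet gene that fasting liver also expresses, had 277 and 805 normalized counts in WT against 168 and 816 in LXRDKO. The fat cell markers Adipoq and Plin1 had under 2 in every liver. Cfd, from the same marker list, was detected in all livers, with 69.6 and 28.9 in WT against 10.4 and 38.6 in LXRDKO. The part of zonation and of nutritional state in the values of the members was not tested.

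**Figure D5:**
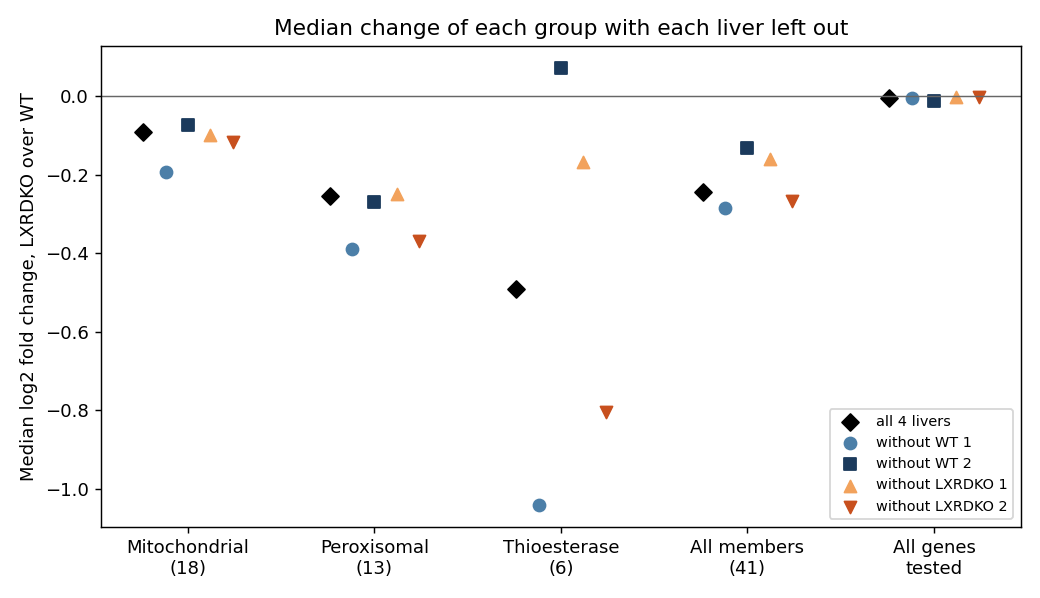
Median log2 fold change of each gene group with all 4 livers (diamonds) and with each liver left out in turn. The thioesterase median moves from −1.04 to 0.07, the peroxisomal median stays between −0.39 and −0.25, and the mitochondrial median between −0.19 and −0.07.

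Other genes of the same pathways, 46 in all, were read beside the members, and 45 could be tested. Of these, 31 had a lower mean in LXRDKO and 14 a higher one, with a median log2 fold change of −0.11. Limma called 0 of them, and DESeq2 called 1 lower, Ppara, and none higher. Without adjustment, 9 had a limma P value under 0.05, 7 of them lower and 2 higher. That is 20.0% of these genes, against 19.5% of the members and 13.3% of all genes tested. In 16 of them (35.6%, against 23.0% of all genes) each LXRDKO liver was below each WT liver, and in 10 (22.2%, against 21.7%) above. By group, the median log2 fold change was −0.14 for 8 further mitochondrial genes, −0.11 for 10 further peroxisomal enzymes, −0.12 for 14 peroxins, −0.08 for the 4 thioesterases tested of 5, and −0.09 for 5 further ketone body genes. Among the last, 3 had a lower and 2 a higher mean in LXRDKO, and none had an unadjusted P value under 0.05 by limma. Of the 10 further peroxisomal enzymes, 6 had a lower and 4 a higher mean, unlike the peroxisomal members. Each LXRDKO liver was below each WT liver in 1 of them (10%) and above in 3 (30%). Of the 14 peroxins, 7 (50%) were below and 3 (21.4%) above in this way.

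Ppara, which encodes the receptor, had 15122 and 12695 normalized counts in WT against 8264 and 10337 in LXRDKO. Each LXRDKO value was below each WT value, with a log2 fold change of −0.58 (limma, standard error 0.15 and adjusted P = 0.214) and an adjusted P value of 0.0282 by DESeq2. Unlike many members, Ppara was lower in WT replicate 2 than in WT replicate 1. The 3 other regulators listed, Rxra, Ppargc1a and Ppargc1b, were called by neither tool. Ppargc1a went the other way, with 657 and 743 normalized counts in WT against 826 and 1011 in LXRDKO. Its log2 fold change was 0.39 (unadjusted P = 0.042, limma), and those of Rxra and Ppargc1b were −0.16 and −0.20.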

How the data were processed

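RNA-Seq of 2 WT and 2 LXRDKO livers was analysed; the 4 ATAC-Seq samples of the series were not used here. Per the submitters' processing notes, the authors aligned single-end reads of 50 bases to mm10 with STAR 2.6.0c. The deposited values are a signal, read counts that the authors divided by 1 DESeq2 size factor per library; the counting tool and annotation are not given in the sources used here. All values (100%) were whole multiples of 1 read, within 0.01 reads, so reads could be recovered.

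Limma 3.58.1 (R 4.3.3) was fitted to log2(normalized count + 1) with a variance trend. Genes averaging 10 or more entered, 15578 in all, and Benjamini-Hochberg adjustment ran over all of them. Fold changes on this scale understate changes of low genes. The recovered reads were also tested with DESeq2 1.42.0 and edgeR 4.0.16, and every test was tested on simulated data. The litter and day of each mouse are not given in the sources used here, so a difference in either between the genotypes cannot be told apart from genotype. P values set each change against the spread between these mice, which limma estimates with the help of the other genes. Gene models, positions (GRCm38) and exon lengths came from GENCODE M21, which matched 24987 of 25010 identifiers; levels per kb use the length of all annotated exons of a gene. Copies were searched with BLAST+ 2.17.0 at 98% identity or more. Identity of paralogs was planned on proteins and was computed on coding bases instead. The members, lists and tests were chosen with earlier results of these data known. The named genes are all 41 members, Ppara, Nr1h3, Nr1h2 and other pathway genes called by limma or DESeq2. Markers called by limma are named, and so are some, but not all, of the first 3 of each list. A further 5 macrophage markers, Reln, Dcn, Epcam, Hnf4a, Tat, Cfd, S100a8, S100a9 and 3 regulators were added after their values were seen.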

Additional observations from a re-analysis of the deposited data

How the results depend on the processing

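Nothing states that the replicate numbers pair mice across genotypes. The correlation of replicate deviations was 0.0031 over the genes tested and 0.51 over the 41 members. It cannot decide the question, since a factor shared by some genes only can leave it near 0 over all genes. With the replicate number as a block, limma called 0 members, as without it. Over all genes the block gave 55 lower and 35 higher calls in place of 29 and 21. The number of members called was 0 under every other limma setting with all livers, including a threshold of 0.10, and with edgeR. It was 3 with DESeq2, and from 0 to 3 with 1 liver left out (3 without WT replicate 1, which were Abcd2, Acaa1b and Vnn1, in a fit that takes the single WT liver to vary like the LXRDKO livers). Of the other pathway genes 0 were called, 1 with DESeq2, and 0 to 1 with 1 liver left out. The median of the 41 members lay between −0.29 and −0.13 with 1 liver left out, that of the mitochondrial genes between −0.19 and −0.072, that of the peroxisomal genes between −0.39 and −0.25 and that of the thioesterases between −1.04 and 0.07. Members with both LXRDKO livers below both WT livers numbered 20, but 11 under upper-quartile scaling and 13 under library-total scaling, which moved the median of all genes to 0.03 and 0.05; with 1 liver left out, which loosens the criterion for every gene, they numbered between 23 and 32 (56.1% to 78.0% of members, where 35.9% to 37.9% of all genes met it). Directions turned under library-total scaling for Cpt1a (0.016), Acads (0.041) and Etfa (0.011), under upper-quartile scaling for Acads (0.024), and for Pdk4 with DESeq2 (0.20) and edgeR (0.20). With 1 liver left out, log2 fold changes that turned ran from −0.16 (without LXRDKO replicate 2) to 0.082 (without LXRDKO replicate 1) for Cpt1a, from −0.27 to 0.070 for Cpt2 and from −0.21 to 0.019 for Acaa1a with the same livers left out, and from −1.53 to 1.13 for Pdk4. Those of Acadl (−0.24 to 0.074), Acadm (−0.16 to 0.035), Etfa (−0.090 to 0.0026), Ehhadh (−0.92 to 0.41), Acot1 (−1.01 to 0.25), Acot2 (−1.39 to 0.18) and Acot3 (−1.88 to 0.28) turned without WT replicate 2. Acads ranged from −0.069 to 0.041, Scp2 from −0.31 to 0.063 (without WT replicate 1) and Ech1 from −0.77 to 0.063 (without LXRDKO replicate 2). None of these turned values was called, and apart from the left-out livers the cause was not tested. The members had at least 121 reads in every liver.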

Other observations

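Markers of other liver cell types were read in the same way. Of 6 endothelial markers limma called 1 lower, Kdr (adjusted P = 0.0498), and the markers summed to 10344 and 9253 normalized counts in WT against 7849 and 6005 in LXRDKO. In all 5 cholangiocyte markers each LXRDKO liver was above each WT liver (100%, against 21.7% of all genes). Their summed levels were 2077 and 3582 in WT against 4553 and 5409 in LXRDKO. Limma called none of them, with 3 at an unadjusted P value under 0.05 (60%, against 13.3% of all genes), while DESeq2 called Epcam higher (adjusted P = 0.0112). The 7 stellate cell markers summed to 12884 and 16700 in WT against 18464 and 21141 in LXRDKO, and DESeq2 called Reln and Dcn higher (adjusted P = 0.0320 and 0.00357) where limma called none. Lymphoid and neutrophil markers summed to 124 and 179 normalized counts in WT against 82.6 and 65.4 in LXRDKO, and limma called none. In all 4 lymphoid markers each LXRDKO liver was below each WT liver, against 23.0% of all genes. The neutrophil markers S100a8 and S100a9 averaged 4.12 and 9.36 in WT against 6.06 and 11.2 in LXRDKO, with overlapping groups. The 8 hepatocyte markers summed to 6390117 and 7482126 in WT against 6699253 and 6040556 in LXRDKO, a sum made up mostly of Alb. DESeq2 called 2 of them higher, Tat (log2 fold change 0.65, adjusted P = 0.00675) and Hnf4a (0.60, adjusted P = 0.0115), and limma called none. Clock genes, 12 in all, summed to 61713 and 62440 in WT against 58360 and 49011 in LXRDKO, a sum that pools opposite changes. Limma called none of the 11 tested. At an unadjusted P value under 0.05 by limma, 3 were lower and 2 higher (45.5%, against 13.3% of all genes). Each LXRDKO liver was below each WT liver in 5 (45.5%, against 23.0% of all genes) and above in 4 (36.4%, against 21.7%).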
